A study of Mus musculus with 12 samples.

Results

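The genes described here are the Wnt ligands and the receptors and co-receptors that bind them, taken as every symbol of the form Wnt or Fzd plus a number, with Lrp5, Lrp6, Ror1, Ror2 and Ryk. The rule found 33 of the 17016 named genes on the array: 19 ligands, and 14 receptors or co-receptors. The rule reads symbols and no measured value, but this set of genes was proposed with earlier results of these data known. Fzd9 had no matched probe and was not analysed here. The messenger RNA of 12 cultures of mouse embryonic fibroblasts was measured on Agilent arrays of 1 colour, 1 array per culture. The FAK knockout (KO) line, obtained from ATCC, lacks focal adhesion kinase (FAK, gene Ptk2), a tyrosine kinase of the sites where integrins hold a cell to its matrix. The FAK rescue line is a single clone, DA2, of knockout cells in which FAK was put back. Both lines were grown in DMEM with Glutamax and serum, and only the rescue line also received hygromycin B (135 µg/ml) and non-essential amino acids, so that line and medium cannot be told apart. Cells from up to 3 dishes were pooled before seeding. The 4 groups were KO cells seeded densely (8200000 cells per 10 cm dish), rescue cells seeded densely, KO cells seeded sparsely (410000 cells) and rescue cells seeded sparsely, all harvested after 24 h. Each group had 3 cultures, 1 from each of 3 experimental days, which number the replicates 1 to 3.

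Wnt proteins are secreted lipid-modified signals that act over short distances. Binding of a Wnt to a Frizzled receptor together with Lrp5 or Lrp6 stabilises beta-catenin, which joins TCF and LEF factors on DNA, while binding to Frizzled with Ror1, Ror2 or Ryk can act without beta-catenin on cell polarity, movement and calcium. In fibroblasts and other mesenchymal cells, Wnt signals are known for roles in patterning, in matrix production and in the choice between bone, fat and other fates.

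Between the lines, several ligand genes were on in one line and near background in the other. Wnt2, Wnt2b, Wnt5a and Wnt6 were well above background on arrays of KO cells only, and Wnt7a and Wnt10b on arrays of rescue cells only. RefSeq promoters (GRCm38.p6, 250 bases before to 50 after the start of the gene) were at hand for 23 of the 33 members, and are shown for the 5 of these 6 on-or-off ligands that had one, because these ligands were above background in 1 line alone. They were searched on both strands for 5 motifs. The GC box, a site of Sp factors, was searched as GGGCGG and is held by 35.7% of the 32851 promoters of the table. The TATA box was searched as TATAAA and is held by 13.6% of them. The core shared by TCF and LEF factors was searched as CTTTGA, which 16.0% hold. The site of TEAD factors was searched as GGAATG, which 14.7% hold. The site shared by WT1 and EGR factors was searched as GCGGGGGCG, which 2.91% hold. Capitals mark every match, on either strand, and the first 3 sequences are the ligands of KO cells. Wnt2 lies on the minus strand at chr6:18030396-18030695, Wnt2b on the minus strand at chr3:104961660-104961959, Wnt6 on the plus strand at chr1:74771642-74771941, Wnt7a on the minus strand at chr6:91411304-91411603 and Wnt10b on the minus strand at chr15:98778101-98778400.
Wnt2: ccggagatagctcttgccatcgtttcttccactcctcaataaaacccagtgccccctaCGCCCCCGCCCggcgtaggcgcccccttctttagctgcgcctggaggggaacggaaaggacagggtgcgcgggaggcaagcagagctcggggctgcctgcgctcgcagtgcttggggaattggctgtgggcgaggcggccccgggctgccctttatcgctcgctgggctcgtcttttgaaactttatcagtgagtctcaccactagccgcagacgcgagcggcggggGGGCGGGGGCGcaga
Wnt2b: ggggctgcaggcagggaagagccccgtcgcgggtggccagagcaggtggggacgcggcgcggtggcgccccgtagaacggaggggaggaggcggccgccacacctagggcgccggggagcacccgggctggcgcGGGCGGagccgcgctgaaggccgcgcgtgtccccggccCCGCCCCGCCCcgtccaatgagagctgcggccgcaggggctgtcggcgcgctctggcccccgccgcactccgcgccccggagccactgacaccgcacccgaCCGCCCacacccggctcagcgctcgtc
Wnt6: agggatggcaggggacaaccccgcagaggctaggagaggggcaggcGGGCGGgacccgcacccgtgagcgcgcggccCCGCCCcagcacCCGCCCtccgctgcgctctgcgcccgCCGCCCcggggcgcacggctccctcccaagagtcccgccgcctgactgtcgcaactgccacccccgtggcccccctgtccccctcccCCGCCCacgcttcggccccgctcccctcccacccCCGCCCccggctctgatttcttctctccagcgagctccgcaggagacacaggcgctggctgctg
Wnt7a: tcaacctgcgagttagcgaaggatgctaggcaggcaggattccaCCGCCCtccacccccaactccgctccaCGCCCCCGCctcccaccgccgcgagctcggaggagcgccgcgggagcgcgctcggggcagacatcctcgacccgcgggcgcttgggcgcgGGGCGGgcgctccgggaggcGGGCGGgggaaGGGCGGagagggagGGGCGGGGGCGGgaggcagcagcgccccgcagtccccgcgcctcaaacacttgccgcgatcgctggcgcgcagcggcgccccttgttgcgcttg
Wnt10b: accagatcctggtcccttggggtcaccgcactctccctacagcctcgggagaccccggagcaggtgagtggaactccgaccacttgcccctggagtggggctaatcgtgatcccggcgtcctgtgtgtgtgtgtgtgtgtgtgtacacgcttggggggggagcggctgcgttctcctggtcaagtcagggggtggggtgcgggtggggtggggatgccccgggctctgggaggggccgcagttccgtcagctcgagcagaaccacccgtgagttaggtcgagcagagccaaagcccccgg
The GC box had 2 matches in the Wnt2 promoter, 4 in Wnt2b, 6 in Wnt6, 6 in Wnt7a and 0 in Wnt10b. The WT1 and EGR letters were found in Wnt2 (2 matches) and in Wnt7a (2 matches), with 2 overlapping pairs of motifs in each. The letters of the TATA box, of the TCF and LEF core and of the TEAD site were not in these 5 windows. All 5 promoters were rich in G and C, at 65.7% in Wnt2, 79.7% in Wnt2b, 76.7% in Wnt6, 76.0% in Wnt7a and 66.3% in Wnt10b, against a median of 52.7% over all promoters. They held 27, 43, 31, 42 and 18 CpG pairs in that order, against a median of 7. Both values were above the medians in each of the 5 promoters, whichever line held the transcript. A match to a motif is a description of letters only.

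The median spot signal of the 12 arrays was 19.5 to 84.6 intensity units, 23152 to 26183 of 41174 probes were well above background, and arrays of the same group had correlations of 0.982 to 0.992 with each other, taken across genes, which do not count as independent. Of the fibroblast markers, 8 of 9 were well above background on 3 of 3 arrays in every group, Thy1 being the exception, and their summed linear signal relative to the 75th percentile was 359 to 387 in dense KO, 778 to 1183 in dense rescue, 329 to 361 in sparse KO and 782 to 881 in sparse rescue cultures. Mesothelial markers differed between the lines: 8 of 8 were above background on 3 of 3 arrays in KO cells and 4 of 8 in rescue cells, with Wt1, Upk3b and Lrrn4 on no rescue array, and their sum was 154 to 170 in dense KO, 25.1 to 37.3 in dense rescue, 186 to 215 in sparse KO and 28.0 to 46.0 in sparse rescue cultures. Not all of them went 1 way: 7 were called higher and 1 lower in KO cells at the dense seeding, and 5 higher and 1 lower at the sparse seeding (limma). The summed signal of 6 epithelial markers also differed, at 22.5 to 26.8 in dense KO, 0.243 to 0.329 in dense rescue, 8.68 to 14.05 in sparse KO and 0.857 to 1.84 in sparse rescue cultures. Of these, Krt14 (mean log2 signal 4.60, -2.43, 3.54 and 0.10 in the same order) was the bright one, while Epcam was above background on 1 of 3 sparse KO arrays and no other, and Cdh1 on 0 of 3 arrays of KO cells at either density, 3 of 3 of dense rescue and 1 of 3 of sparse rescue cells. Of 4 Y-linked genes, none was above background in KO cells and 3 to 4 were in rescue cells, and Xist was above background on no array. These differences move with the line in every comparison of KO with rescue below, and their part in it was not tested. Ptk2 was read by 2 probes. On the brighter probe KO minus rescue was -0.07 ± 0.18 in dense cells (limma, adjusted p = 0.763) and -0.11 ± 0.18 in sparse cells (adjusted p = 0.648), and on the other it was -0.93 ± 0.31 (adjusted p = 0.0210) and -2.08 ± 0.31 (adjusted p = 0.000167). Where the probes lie relative to the deleted part is not known. Both densities of a line and day shared a slide, but the lines shared 1 of 5 slides, that of day 2, so differences within this shared slide are given beside the fitted ones. The authors' deposited value table was set aside as the main source, because 4 of its 12 columns, all of day 3, matched best the scanner array of the other line.

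Values are log2 signals relative to the 75th percentile of the same array, given in the order of days 1, 2 and 3, and they are comparable between arrays for 1 gene but not between genes. Changes are log2 differences ± SE from a limma fit of all 12438 genes tested, with 3 cultures per group, and a gene was called at an adjusted p under 0.05. These p-values measure the spread between cultures of different days, and the number of arrays limits their precision. A probe was tested if it was well above background on 3 of 3 arrays of at least 1 group, which 26 members passed, 13 of the ligands and 13 of the receptors. A gene bright in 1 line alone passed through that line and had to differ, so counts over the members tested describe them and support nothing. Where a group was above background on 0 of 3 arrays, the change is also given as a lower bound in fold ("at least"), the bright group's mean against the mean, over the dim group's arrays, of the higher of the array's lowest well-above-background signal and the probe's own. That lowest signal is the minimum over all probes of an array. It is not a detection limit, since a spot that is not well above background can read higher. The spread between cultures does not enter the bound either. The words "lower bound" and "at least" therefore name this ratio only and are not a strict limit. In bulk cultures, fewer cells with a transcript and less transcript per cell cannot be told apart.

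Of the 19 ligands, 10 were well above background on 3 of 3 arrays in KO cells and 6 in rescue cells, at either density. Those on all 12 arrays were Wnt4, Wnt5b, Wnt7b and Wnt9a. Wnt3a, Wnt8a and Wnt16 were above background on no array, and Wnt3, Wnt8b and Wnt9b on fewer than 3 arrays of each group, so that these 6 were not tested. Among the 14 receptors and co-receptors, 12 were above background on 3 of 3 arrays in KO cells and 11 in rescue cells. Of these, 10 were on all 12 arrays (Fzd1, Fzd2, Fzd4, Fzd5, Fzd6, Fzd7, Lrp5, Lrp6, Ror2 and Ryk), Fzd3 on KO arrays only, Fzd8 on rescue arrays only, and Fzd10 was not tested. Over all 17016 genes, 1.75% were above background on KO arrays only, 2.91% on rescue arrays only, 59% on all 12 arrays and 15.5% on none.

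The first question was which ligands and receptors differ between KO and rescue cells. In dense cells 19 of the 26 members tested were called (limma), 14 higher and 5 lower in KO cells, where 61.6% of all genes were called, 31.9% higher and 29.7% lower. In sparse cells 22 were called, 14 higher and 8 lower in KO cells, where 48.8% of all genes were called, 23.2% higher and 25.6% lower. The lines did not overlap for 20 members in dense cells, against 67.1% of all genes, and for 22 in sparse cells, against 58.9% of all genes. At the same thresholds, scaling to spike-in RNA gave 15 higher and 3 lower in dense cells, and 10 higher and 11 lower in sparse cells. The median size of the difference, without its sign, was 2.51 among the members and 0.88 among all genes in dense cells, and 2.99 and 0.65 in sparse cells. Like the counts, these medians describe the members tested and support nothing. Only 14 of the 26 were on all 12 arrays, and members that passed through 1 line alone enter with values near background in the other. Both comparisons called 18 members, of which 12 were higher and 5 lower in KO cells at both densities, and 1, Fzd2, changed in opposite directions. Ligands were mostly higher in KO cells, with 9 called higher and 1 lower in dense cells and 8 higher and 3 lower in sparse cells. Receptors divided more evenly, at 5 higher and 4 lower in dense cells and 6 higher and 5 lower in sparse cells.

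**Figure D1:**
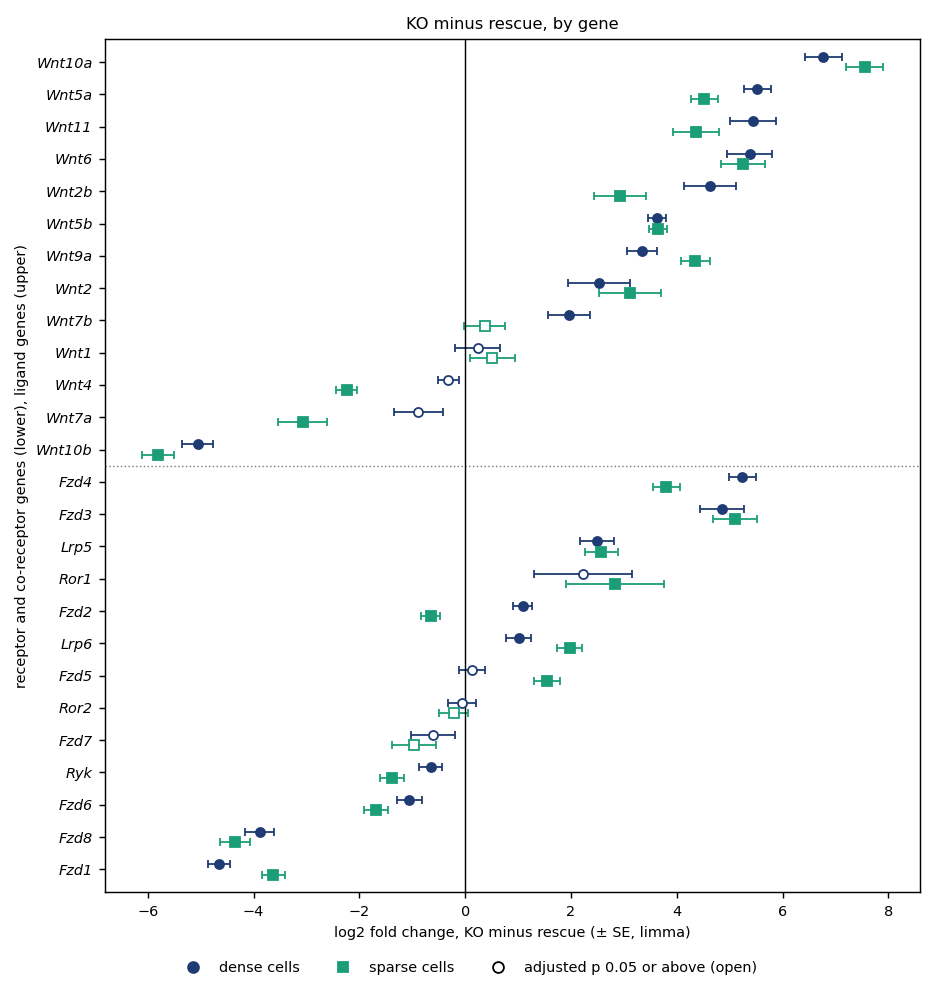
Log2 fold change of KO minus rescue (horizontal axis, ± SE from limma) for the 13 ligand genes (upper) and 13 receptor and co-receptor genes (lower) that were tested, with circles for dense and squares for sparse cells and open symbols for an adjusted p of 0.05 or above. Wnt10a lies farthest to the right, at 6.77 in dense and 7.55 in sparse cells, and Wnt10b and the receptors Fzd1 and Fzd8 lie farthest to the left.

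Wnt5a, a ligand known for acting without beta-catenin through Ror2 and for guiding cell movement, was on in KO cells only. Wnt5a had -2.42, -1.85 and -1.99 in dense KO cultures, against -7.62, -7.85 and -7.35 in dense rescue cultures. Sparse KO cultures had -3.14, -2.42 and -2.66, against -6.89, -7.64 and -7.25 in sparse rescue cultures. All rescue arrays were below all KO arrays and none of them was well above background. The line difference of Wnt5a was 5.52 ± 0.26 in dense cells (limma, adjusted p = 4.14e-09, and 6.00 within the shared slide) and 4.52 ± 0.26 in sparse cells (adjusted p = 3.09e-08, and 5.22 within the shared slide). As a lower bound, Wnt5a was at least 20.8-fold higher in dense KO cells and at least 9.64-fold higher in sparse KO cells. Wnt5b, its closest relative, was above background on all 12 arrays. Dense KO cultures had Wnt5b values of 1.08, 0.96 and 1.04, against -2.69, -2.57 and -2.54 in dense rescue cultures. In sparse KO cultures they were 1.02, 1.13 and 0.95, against -2.57, -2.92 and -2.33 in sparse rescue cultures. On this brighter probe of Wnt5b the lines did not overlap, and the densities overlapped within each line. For Wnt5b, KO minus rescue was 3.63 ± 0.17 in dense cells (limma, adjusted p = 4.74e-09, and 3.53 within the shared slide) and 3.64 ± 0.17 in sparse cells (adjusted p = 5.44e-09, and 4.05 within the shared slide). The second probe of Wnt5b differed by 3.66 in dense and 4.36 in sparse cells, both called.

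Wnt11, which like Wnt5a is best known for polarity and movement of cells in the embryo, was above background on all KO arrays and on 2 of 3 rescue arrays at each density. On the dense arrays Wnt11 read 0.63, 1.06 and 1.00 in KO cells, against -4.26, -3.80 and -5.60 in rescue cells. On the sparse arrays it read 0.29, 0.51 and 0.10 in KO cells, against -3.91, -3.42 and -4.88 in rescue cells. Every KO array was above every rescue array. Wnt11 gave a KO minus rescue of 5.45 ± 0.44 in dense cells (limma, adjusted p = 5.33e-07, and 4.86 within the shared slide) and 4.37 ± 0.44 in sparse cells (adjusted p = 5.23e-06, and 3.94 within the shared slide).

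Wnt10a, a ligand needed for teeth, hair and skin, showed the largest difference of the members at both densities. In dense KO cells the 3 values of Wnt10a were -0.11, 0.37 and 0.98, against -6.28, -6.72 and -6.06 in dense rescue cells. At the sparse seeding KO cells had 1.05, 1.88 and 1.66, against -6.12, -5.42 and -6.53 in rescue cells. The lines were far apart, and rescue cells were above background on 0 of 3 dense and 1 of 3 sparse arrays. KO minus rescue of Wnt10a was 6.77 ± 0.35 in dense cells (limma, adjusted p = 1.10e-08, and 7.09 within the shared slide) and 7.55 ± 0.35 in sparse cells (adjusted p = 4.86e-09, and 7.30 within the shared slide). As a lower bound, Wnt10a was at least 106-fold higher in dense KO cells. Wnt6, its neighbour on chromosome 1, is a ligand of epithelia and early mesoderm. The signal of Wnt6 was -3.91, -2.28 and -2.08 in dense KO cells, against -8.32, -8.01 and -8.08 in dense rescue cells. For sparse cells the signal was -2.78, -2.08 and -2.01 in KO, against -7.55, -7.96 and -7.11 in rescue. KO culture 1 at the dense seeding was the lowest of the KO cultures, still far above every rescue culture. The line difference of Wnt6 was 5.38 ± 0.42 in dense cells (limma, adjusted p = 4.36e-07, and 5.73 within the shared slide) and 5.25 ± 0.42 in sparse cells (adjusted p = 7.17e-07, and 5.88 within the shared slide). By the bound, Wnt6 was at least 13.1-fold higher in dense KO cells and at least 13.2-fold higher in sparse KO cells. Both neighbours were higher in KO cells.

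Wnt9a, known from joint formation, was read on all 12 arrays by its brighter probe. At the dense seeding, Wnt9a measured 0.15, 0.46 and 0.74 in KO cells, against -2.81, -2.59 and -3.29 in rescue cells. KO cells seeded sparsely measured -0.29, 0.47 and -0.02, against -4.35, -3.86 and -4.69 in rescue cells seeded sparsely. The lines did not overlap at either density. For Wnt9a, KO minus rescue was 3.35 ± 0.28 in dense cells (limma, adjusted p = 7.75e-07, and 3.05 within the shared slide) and 4.35 ± 0.28 in sparse cells (adjusted p = 1.01e-07, and 4.32 within the shared slide). Its second, dim probe was above background on no rescue array and gave 1.69 in dense cells, a call, and 0.73 in sparse cells, no call (limma, adjusted p = 0.323). Its neighbour on chromosome 11, Wnt3a, was on no array.

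Wnt2 and Wnt2b, a related pair with roles in lung formation, were dim genes of KO cells. Wnt2 had -7.08, -5.10 and -4.26 in dense KO cultures, against -8.33, -7.38 and -8.32 in dense rescue cultures. Sparse KO cultures had -3.29, -3.39 and -3.99, against -7.15, -6.01 and -6.87 in sparse rescue cultures. Dense KO culture 1 fell among the rescue values of sparse cells, though the lines did not overlap within a density, and dense KO cells were above background on 2 of 3 arrays. Wnt2 gave a KO minus rescue of 2.53 ± 0.59 in dense cells (limma, adjusted p = 0.00280, and 2.28 within the shared slide) and 3.12 ± 0.59 in sparse cells (adjusted p = 0.000945, and 2.62 within the shared slide). The dense difference of Wnt2 was 3.33 without dense KO culture 1 (limma, adjusted p = 4.99e-05) and 1.92 without dense KO culture 3 (adjusted p = 0.0122). As a lower bound, Wnt2 was at least 1.98-fold higher in dense KO cells and at least 5.32-fold higher in sparse KO cells. Dense KO cultures had Wnt2b values of -3.39, -3.34 and -3.01, against -6.88, -8.18 and -8.56 in dense rescue cultures. In sparse KO cultures they were -4.46, -3.62 and -3.40, against -7.64, -6.78 and -5.84 in sparse rescue cultures. The KO values were close together and the rescue values scattered near background. KO minus rescue of Wnt2b was 4.63 ± 0.49 in dense cells (limma, adjusted p = 6.06e-06, and 4.85 within the shared slide) and 2.92 ± 0.49 in sparse cells (adjusted p = 0.000386, and 3.16 within the shared slide). By the bound, Wnt2b was at least 9.31-fold higher in dense KO cells and at least 4.22-fold higher in sparse KO cells.

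Wnt10b, a ligand that favours bone over fat in mesenchymal cells, ran the other way and was above background in rescue cells only. On the dense arrays Wnt10b read -6.37, -6.52 and -6.22 in KO cells, against -1.45, -1.64 and -0.86 in rescue cells. On the sparse arrays it read -7.23, -6.49 and -7.15 in KO cells, against -0.88, -0.83 and -1.73 in rescue cells. No KO array came within 4 units of a rescue array. The line difference of Wnt10b was -5.05 ± 0.30 in dense cells (limma, adjusted p = 3.27e-08, and -4.89 within the shared slide) and -5.81 ± 0.30 in sparse cells (adjusted p = 1.14e-08, and -5.66 within the shared slide). As a bound, Wnt10b was at least 23.8-fold lower in dense KO cells and at least 18.2-fold lower in sparse KO cells. Wnt1, next to Wnt10b on chromosome 15, is the founding member of the family and was near background in all groups. Its mean was -5.18 ± 0.40 in dense KO, -5.42 ± 0.25 in dense rescue, -4.95 ± 0.52 in sparse KO and -5.46 ± 0.96 in sparse rescue cells (SD, n = 3). The groups overlapped and no comparison called Wnt1, with a KO minus rescue of 0.24 ± 0.43 in dense cells (limma, adjusted p = 0.648) and 0.51 ± 0.43 in sparse cells (adjusted p = 0.351).

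Wnt7a, Wnt4 and Wnt7b were called between the lines at 1 density only. Wnt7a is known for patterning the back of the limb. In dense KO cells the 3 values of Wnt7a were -7.27, -7.86 and -7.28, against -5.82, -6.05 and -7.90 in dense rescue cells. At the sparse seeding KO cells had -6.49, -6.05 and -7.11, against -3.53, -3.39 and -3.54 in rescue cells. Only the sparse rescue cultures were above background on every array, and dense rescue was above it on 1 of 3, with overlap between the lines in dense cells. For Wnt7a, KO minus rescue was -0.88 ± 0.46 in dense cells (limma, adjusted p = 0.117, not called, and -1.82 within the shared slide) and -3.07 ± 0.46 in sparse cells (adjusted p = 0.000166, and -2.66 within the shared slide). Without dense rescue culture 3, the lowest of its group, the dense difference was -1.54 (limma, adjusted p = 0.00110). As a lower bound, Wnt7a was at least 3.59-fold lower in sparse KO cells. Wnt4, a ligand of kidney and female reproductive development, was on all 12 arrays. The signal of Wnt4 was -2.79, -2.80 and -2.77 in dense KO cells, against -2.41, -2.66 and -2.33 in dense rescue cells. For sparse cells the signal was -3.13, -3.59 and -3.84 in KO, against -1.11, -1.24 and -1.51 in rescue. In sparse cells the lines were well apart, while in dense cells they lay close together without overlapping. Wnt4 gave a KO minus rescue of -0.32 ± 0.20 in dense cells (limma, adjusted p = 0.193, not called, and -0.14 within the shared slide) and -2.24 ± 0.20 in sparse cells (adjusted p = 1.91e-06, and -2.36 within the shared slide). Wnt7b, known from lung and from vessels of the brain, differed in dense cells. At the dense seeding, Wnt7b measured -2.38, -2.74 and -2.17 in KO cells, against -3.48, -4.87 and -4.84 in rescue cells. KO cells seeded sparsely measured -2.74, -2.53 and -2.93, against -3.01, -2.51 and -3.79 in rescue cells seeded sparsely. In dense cells every KO array was above every rescue array, and in sparse cells the lines overlapped. KO minus rescue of Wnt7b was 1.96 ± 0.39 in dense cells (limma, adjusted p = 0.000876, and 2.12 within the shared slide) and 0.37 ± 0.39 in sparse cells (adjusted p = 0.463, not called, and -0.02 within the shared slide).

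**Figure D2:**
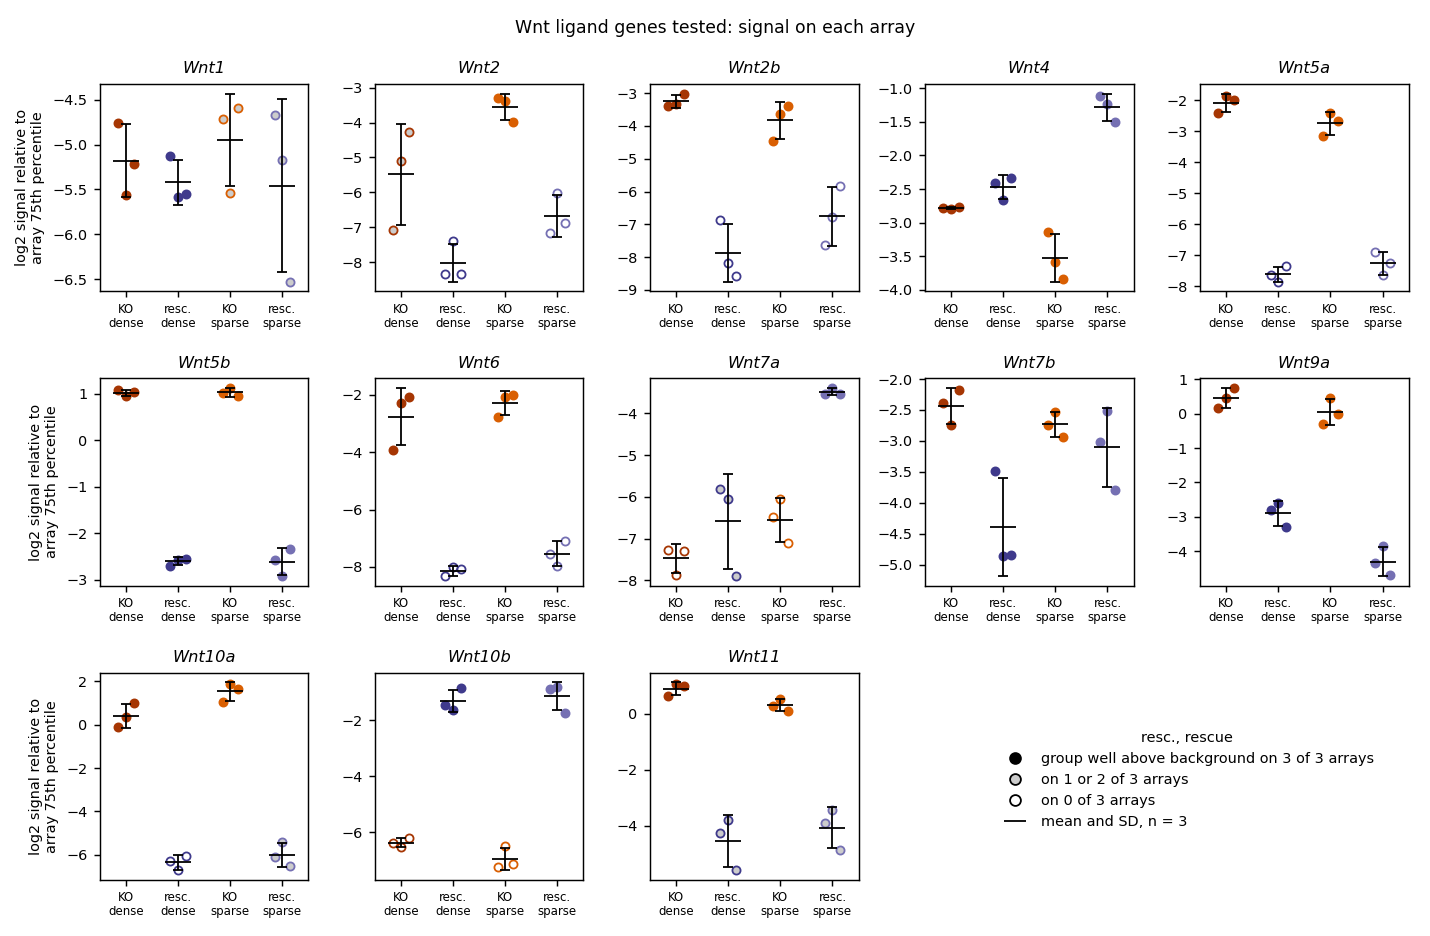
Signal of the 13 ligand genes tested on each array (vertical axis, log2 relative to the array's 75th percentile, with its own range for each gene) by group, with mean and SD over 3 cultures. Filled, grey and open points mark groups above background on 3, on 1 or 2, and on 0 of 3 arrays. Wnt10a, Wnt5a, Wnt6 and Wnt11 are high in both KO groups, and Wnt10b is high in both rescue groups.

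Among the Frizzled receptors, Fzd4, a receptor for Wnts and also for Norrin in retinal vessels, was higher in KO cells. Fzd4 had 1.65, 0.96 and 0.86 in dense KO cultures, against -3.96, -4.01 and -4.29 in dense rescue cultures. Sparse KO cultures had 0.21, 0.88 and 0.93, against -3.00, -3.35 and -3.03 in sparse rescue cultures. The lines were apart by more than 3 units on every day. The line difference of Fzd4 was 5.24 ± 0.25 in dense cells (limma, adjusted p = 6.21e-09, and 4.97 within the shared slide) and 3.80 ± 0.25 in sparse cells (adjusted p = 1.46e-07, and 4.23 within the shared slide). Fzd3, a receptor of axon guidance and planar polarity, was on KO arrays only. Dense KO cultures had Fzd3 values of -1.96, -1.69 and -1.59, against -6.79, -7.57 and -5.42 in dense rescue cultures. In sparse KO cultures they were -1.52, -2.09 and -2.15, against -6.89, -7.19 and -7.01 in sparse rescue cultures. Dense rescue culture 3 was the highest of the rescue cultures and was still not well above background. For Fzd3, KO minus rescue was 4.85 ± 0.42 in dense cells (limma, adjusted p = 9.51e-07, and 5.88 within the shared slide) and 5.11 ± 0.42 in sparse cells (adjusted p = 8.04e-07, and 5.10 within the shared slide). Without dense rescue culture 3 the dense difference of Fzd3 was 5.43 (limma, adjusted p = 4.34e-08). By the bound, Fzd3 was at least 21.01-fold higher in dense KO cells and at least 17.04-fold higher in sparse KO cells. A second Fzd3 probe was likewise above background on KO arrays only.

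Fzd8, a receptor closely related to Fzd5, was the receptor of rescue cells only. On the dense arrays Fzd8 read -6.01, -6.39 and -6.75 in KO cells, against -2.58, -2.18 and -2.74 in rescue cells. On the sparse arrays it read -6.98, -5.93 and -6.19 in KO cells, against -2.11, -1.99 and -1.97 in rescue cells. All rescue arrays lay over 3 units above all KO arrays. Fzd8 gave a KO minus rescue of -3.88 ± 0.28 in dense cells (limma, adjusted p = 2.01e-07, and -4.21 within the shared slide) and -4.35 ± 0.28 in sparse cells (adjusted p = 9.65e-08, and -3.95 within the shared slide). As a bound, Fzd8 was at least 10.48-fold lower in dense KO cells and at least 9.91-fold lower in sparse KO cells. Fzd1, of the group formed with Fzd2 and Fzd7, was read on all arrays. In dense KO cells the 3 values of Fzd1 were -0.48, -0.79 and -1.13, against 4.03, 3.88 and 3.66 in dense rescue cells. At the sparse seeding KO cells had -1.09, -1.60 and -1.42, against 2.07, 2.46 and 2.23 in rescue cells. Rescue cells were higher on every array, and more so in dense cells. KO minus rescue of Fzd1 was -4.66 ± 0.21 in dense cells (limma, adjusted p = 3.53e-09, and -4.67 within the shared slide) and -3.62 ± 0.21 in sparse cells (adjusted p = 4.12e-08, and -4.05 within the shared slide). Fzd6, which acts in planar polarity of skin and hair, was lower in KO cells. The signal of Fzd6 was -0.01, 0.17 and 0.24 in dense KO cells, against 1.21, 0.70 and 1.66 in dense rescue cells. For sparse cells the signal was -1.05, -0.78 and -0.95 in KO, against 0.50, 0.89 and 0.88 in rescue. The lines did not overlap at either density. The line difference of Fzd6 was -1.06 ± 0.23 in dense cells (limma, adjusted p = 0.00181, and -0.53 within the shared slide) and -1.69 ± 0.23 in sparse cells (adjusted p = 7.83e-05, and -1.68 within the shared slide). With the slide as a fixed block, in which the mean line difference over the densities comes from the shared slide alone and the density changes from all slides, the dense difference of Fzd6 was -0.79 (limma, adjusted p = 0.0671).

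Fzd2 was the member called in opposite directions. At the dense seeding, Fzd2 measured 3.997, 4.28 and 4.14 in KO cells, against 3.21, 2.76 and 3.18 in rescue cells. KO cells seeded sparsely measured 3.18, 3.54 and 3.38, against 3.89, 4.06 and 4.10 in rescue cells seeded sparsely. In dense cells the KO arrays were all higher, and in sparse cells the rescue arrays were all higher. For Fzd2, KO minus rescue was 1.09 ± 0.18 in dense cells (limma, adjusted p = 0.000212, and 1.53 within the shared slide) and -0.65 ± 0.18 in sparse cells (adjusted p = 0.00995, and -0.52 within the shared slide). With the slide as a fixed block, the sparse difference of Fzd2 was -0.37 (limma, adjusted p = 0.291). Its second probe had means of -0.34 ± 0.20 in dense KO, -0.96 ± 0.13 in dense rescue, -1.31 ± 0.10 in sparse KO and -0.59 ± 0.20 in sparse rescue cells (SD, n = 3), the same directions as the first, although its density change in rescue cells was not called (-0.37 ± 0.18, limma, adjusted p = 0.131). Fzd5 was higher in sparse KO cells on its brighter probe. Fzd5 had -0.78, -0.91 and -1.56 in dense KO cultures, against -1.56, -0.83 and -1.26 in dense rescue cultures. Sparse KO cultures had -0.64, -0.33 and -0.22, against -1.98, -2.14 and -1.73 in sparse rescue cultures. Lines overlapped in dense cells and not in sparse cells. Fzd5 gave a KO minus rescue of 0.13 ± 0.25 in dense cells (limma, adjusted p = 0.670, not called, and -0.08 within the shared slide) and 1.55 ± 0.25 in sparse cells (adjusted p = 0.000286, and 1.81 within the shared slide). The second Fzd5 probe placed the difference at the other density, with 0.87 ± 0.26 in dense cells (limma, adjusted p = 0.0128) and 0.67 ± 0.26 in sparse cells (adjusted p = 0.0530), so that the density at which Fzd5 differs is not settled. Fzd7 was on all arrays, with means of 0.25 ± 0.28 in dense KO, 0.86 ± 0.53 in dense rescue, -1.14 ± 0.73 in sparse KO and -0.18 ± 0.68 in sparse rescue cells (SD, n = 3), and the lines overlapped at both densities. No comparison called this probe of Fzd7, while its second probe was lower in sparse KO cells, with a difference of -1.34 ± 0.43 (limma, adjusted p = 0.0224) and gave 0.38 ± 0.43 in dense cells (adjusted p = 0.474). Without sparse rescue culture 3 the first probe gave -1.33 in sparse cells, a call (limma, adjusted p = 0.0242).

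The beta-catenin co-receptors Lrp5 and Lrp6 were both higher in KO cells. Dense KO cultures had Lrp5 values of -0.87, 0.13 and 0.04, against -2.92, -2.27 and -2.99 in dense rescue cultures. In sparse KO cultures they were -0.15, -0.30 and -0.71, against -2.53, -3.04 and -3.33 in sparse rescue cultures. Every KO array was above every rescue array. KO minus rescue of Lrp5 was 2.49 ± 0.32 in dense cells (limma, adjusted p = 2.60e-05, and 2.40 within the shared slide) and 2.58 ± 0.32 in sparse cells (adjusted p = 2.95e-05, and 2.73 within the shared slide). On the dense arrays Lrp6 read -0.53, -0.94 and -1.11 in KO cells, against -1.96, -1.45 and -2.20 in rescue cells. On the sparse arrays it read -0.47, -0.68 and -0.32 in KO cells, against -2.73, -2.44 and -2.24 in rescue cells. All KO arrays were above all rescue arrays for Lrp6 too. The line difference of Lrp6 was 1.01 ± 0.23 in dense cells (limma, adjusted p = 0.00257, and 0.51 within the shared slide) and 1.98 ± 0.23 in sparse cells (adjusted p = 2.19e-05, and 1.76 within the shared slide). With the slide as a fixed block, the dense difference of Lrp6 was 0.65 (limma, adjusted p = 0.137).

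Of the co-receptors of the branch without beta-catenin, Ryk was lower in KO cells. In dense KO cells the 3 values of Ryk were 2.68, 3.01 and 2.99, against 3.74, 3.04 and 3.87 in dense rescue cells. At the sparse seeding KO cells had 1.97, 2.27 and 2.24, against 3.42, 3.57 and 3.64 in rescue cells. The lines did not overlap at either density, with dense rescue culture 2 close to the KO cultures. For Ryk, KO minus rescue was -0.65 ± 0.22 in dense cells (limma, adjusted p = 0.0216, and -0.03 within the shared slide) and -1.38 ± 0.22 in sparse cells (adjusted p = 0.000248, and -1.30 within the shared slide). The dense call of Ryk was lost without dense KO culture 1 (-0.55, adjusted p = 0.0736), dense rescue culture 1 (-0.56, adjusted p = 0.0794) or dense rescue culture 3 (-0.50, adjusted p = 0.0872), and with the slide as a fixed block (-0.30, limma, adjusted p = 0.408). The second probe of Ryk gave -0.60 ± 0.37 in dense cells (limma, adjusted p = 0.188, not called) and -1.74 ± 0.37 in sparse cells (adjusted p = 0.00228). Ror1, a receptor of Wnt5a, was on all KO arrays and on 1 of 3 rescue arrays at each density. The signal of Ror1 was -4.74, -5.89 and -5.03 in dense KO cells, against -8.59, -5.24 and -8.52 in dense rescue cells. For sparse cells the signal was -4.53, -3.46 and -3.81 in KO, against -7.87, -4.78 and -7.65 in rescue. Rescue culture 2 stood apart at both densities, in dense cells within the range of the KO cultures. Ror1 gave a KO minus rescue of 2.23 ± 0.93 in dense cells (limma, adjusted p = 0.0543, not called, and -0.65 within the shared slide) and 2.83 ± 0.93 in sparse cells (adjusted p = 0.0243, and 1.31 within the shared slide). Experimental day as a replicate block, which pairs the cultures of a day, gave an adjusted p of 0.0294 in dense cells (limma). Without dense rescue culture 2 the dense difference was 3.34 (limma, adjusted p = 0.00372). The sparse difference of Ror1 was 3.83 without sparse rescue culture 2 (limma, adjusted p = 0.00362). The sparse call was lost without sparse KO culture 2 (2.60, adjusted p = 0.0662) or 3 (2.77, adjusted p = 0.0581), without sparse rescue culture 1 (2.28, adjusted p = 0.0940) or 3 (2.39, adjusted p = 0.0908), and with the slide as a fixed block (0.64, limma, adjusted p = 0.374). Ror2, the other receptor of this pair, had means of -1.55 ± 0.34 in dense KO, -1.49 ± 0.19 in dense rescue, -1.12 ± 0.55 in sparse KO and -0.90 ± 0.17 in sparse rescue cells (SD, n = 3) on its brighter probe, and the lines overlapped. KO minus rescue on this probe was -0.06 ± 0.27 in dense cells (limma, adjusted p = 0.872) and -0.22 ± 0.27 in sparse cells (adjusted p = 0.533). The dimmer Ror2 probe was above background on 1 of 3 KO arrays and 3 of 3 rescue arrays at each density, and was lower in KO cells, with a difference of -1.46 ± 0.37 in dense cells (limma, adjusted p = 0.00534) and -2.39 ± 0.37 in sparse cells (adjusted p = 0.000259).

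**Figure D3:**
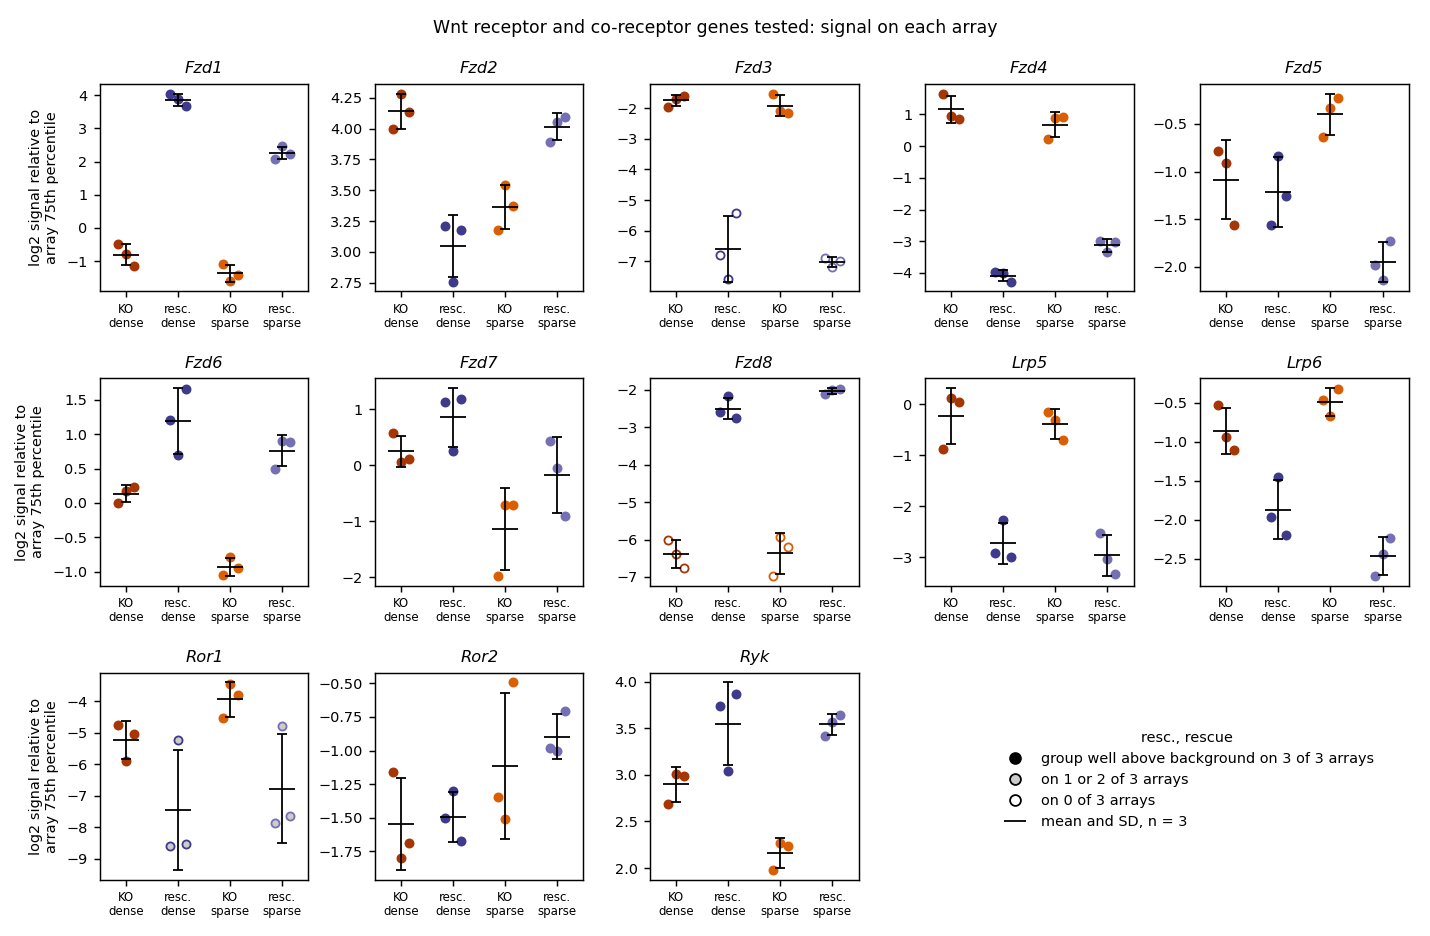
Signal of the 13 receptor and co-receptor genes tested on each array (vertical axis, log2 relative to the array's 75th percentile, with its own range for each gene) by group, with mean and SD over 3 cultures and the same fill of points by background as for the ligands. Fzd4, Lrp5 and Lrp6 are higher in KO cells at both densities, Fzd1 and Fzd8 are higher in rescue cells, and Fzd2 is higher in KO cells at the dense and in rescue cells at the sparse seeding.

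The sizes of many line differences, and the bounds of the on-or-off members, rest on how dim signals are treated. With normexp background correction and an offset of 50, the difference of Wnt5a was 1.65 in dense and 1.46 in sparse cells, that of Fzd3 1.71 and 1.53, that of Wnt10a 3.66 and 4.47, and that of Wnt10b -1.71 in dense cells, all still called. Members read on all or most arrays shrank as well and kept their calls, with Fzd4 at 3.74 in dense and 2.76 in sparse cells, Wnt11 at 3.16 and 2.71, Wnt9a at 2.57 and 2.69, Wnt5b at 2.97 and 2.95, Lrp5 at 1.52 and 1.81, Wnt7b at 1.16 in dense cells and Wnt4 at -1.10 in sparse cells. Wnt6 in sparse cells gave 1.60 (limma, adjusted p = 0.0303). For every member given a bound above, the normexp difference was smaller in size than that bound. The bounds, also those of other genes below, therefore hold only for the processed signal used here. Calls were lost for Wnt10b in sparse cells (-1.45, limma, adjusted p = 0.0592), for Wnt6 in dense cells (1.22, adjusted p = 0.0701), and for Wnt7a in sparse cells (-0.03, adjusted p = 0.974). At both densities calls were lost for Wnt2 (0.53 in dense and 1.04 in sparse cells), Wnt2b (1.23 and 1.05) and Fzd8 (-0.98 and -1.10). The calls of Ryk in dense cells (-0.49) and Ror1 in sparse cells (1.03) were lost as well. Scaling to spike-in RNA turned the dense difference of Ryk to 0.15 and ended the calls of Fzd6 in dense cells (-0.25, limma, adjusted p = 0.669) and, in sparse cells, of Fzd5 (0.0044, adjusted p = 0.993), Lrp5 (1.03, adjusted p = 0.0516), Lrp6 (0.43, adjusted p = 0.374) and Ror1 (1.29, adjusted p = 0.0559). Within the shared slide, all 19 members called in dense cells and all 22 called in sparse cells had the sign of the fitted difference. The arrays of this slide are part of the fit that gave the calls, so this agreement is not independent and supports nothing.

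The second question was how each line responds to density. In KO cells 3 of the 26 members were called (limma), where 10.9% of all genes were called, and in rescue cells 8 were called, where 40% of all genes were called. The 3 in KO cells, Wnt4, Fzd2 and Fzd6, were all higher in dense cells, where 5.43% of all genes were called higher and 5.48% lower. In rescue cells Fzd1, Fzd5 and Wnt9a were higher in dense cells, and Wnt4, Wnt7a, Wnt7b, Fzd2 and Fzd4 were lower, against 19% of all genes called higher and 21% lower. Dense and sparse cultures did not overlap for 13 members in KO cells, against 38.2% of all genes, and for 12 in rescue cells, against 50.6% of all genes. The interaction, the response of KO cells minus that of rescue cells, was called for 6 members, Wnt4, Wnt7a, Fzd1, Fzd2, Fzd4 and Fzd5, where 20.7% of all genes were called, 11.3% above 0 and 9.46% below.

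Wnt4 averaged -2.78 ± 0.02 in dense KO cells and -3.52 ± 0.36 in sparse KO cells (SD, n = 3), a dense minus sparse of 0.74 ± 0.20 (limma, adjusted p = 0.0373). In rescue cells it averaged -2.47 ± 0.17 in dense and -1.28 ± 0.20 in sparse cells, a dense minus sparse of -1.18 ± 0.20 (adjusted p = 0.000698), and the interaction was 1.92 ± 0.28 (limma, adjusted p = 0.000934). The 2 lines moved in opposite directions, and neither line's densities overlapped. Fzd2 averaged 4.14 ± 0.14 in dense KO cells and 3.37 ± 0.18 in sparse KO cells (SD, n = 3), a dense minus sparse of 0.77 ± 0.18 (limma, adjusted p = 0.0197). In rescue cells it averaged 3.05 ± 0.25 in dense and 4.02 ± 0.11 in sparse cells, a dense minus sparse of -0.97 ± 0.18 (adjusted p = 0.00125), and the interaction was 1.74 ± 0.25 (limma, adjusted p = 0.000856). Fzd2 likewise moved up in KO and down in rescue cells with no overlap within a line. Fzd6 averaged 0.13 ± 0.13 in dense and -0.93 ± 0.14 in sparse KO cells (SD, n = 3), a change of 1.06 ± 0.23 (limma, adjusted p = 0.0158), and its change in rescue cells was 0.43 ± 0.23 (adjusted p = 0.161). In rescue cells Fzd6 was not called. These 3 calls in KO cells depended on single cultures. Without sparse KO culture 3, Wnt4 gave 0.58 (limma, adjusted p = 0.135), Fzd2 gave 0.78 (adjusted p = 0.0585) and Fzd6 gave 1.05 (adjusted p = 0.0513). Without dense KO culture 2, the same genes gave 0.75 (adjusted p = 0.106), 0.70 (adjusted p = 0.0861) and 1.04 (adjusted p = 0.0592), and no member was called in KO cells. Without sparse KO culture 1, Fzd2 gave 0.68 (limma, adjusted p = 0.0824) and Fzd6 1.00 (adjusted p = 0.0627). Wnt4 was also not called without 5 other single arrays, 1 of them sparse KO culture 2 (0.70, limma, adjusted p = 0.0993), nor with the slide as a fixed block (0.74, adjusted p = 0.0585). Wnt2 gave a dense minus sparse of -1.93 ± 0.59 in KO cells (limma, adjusted p = 0.0592, not called), and experimental day as a replicate block gave it an adjusted p of 0.0423. Fzd7 gave 1.38 ± 0.42 (limma, adjusted p = 0.0551) and Ryk 0.74 ± 0.22 (adjusted p = 0.0528) in KO cells, neither of them called. The second probe of Ryk was called there, at 1.36 ± 0.37 (limma, adjusted p = 0.0352).

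Wnt7a averaged -6.59 ± 1.14 in dense and -3.49 ± 0.08 in sparse rescue cells (SD, n = 3), a change of -3.10 ± 0.46 (limma, adjusted p = 0.000302), and its change in KO cells was -0.92 ± 0.46 (adjusted p = 0.227). Dense rescue cells lay near background and sparse rescue cells well above it, whereas KO cells were not well above background at either density. The interaction of Wnt7a was 2.18 ± 0.65 (limma, adjusted p = 0.0357), and it was 0.84 within the shared slide. Leaving out 1 array gave 1.53 to 2.57, the lowest of these without dense rescue culture 3 (limma, adjusted p = 0.0239), and 7 of the 12 omissions ended the call (adjusted p 0.0595 to 0.0814). Without dense rescue culture 3 the change of Wnt7a in rescue cells was -2.45 (limma, adjusted p = 0.000207). Fzd4 averaged -4.09 ± 0.17 in dense and -3.13 ± 0.20 in sparse rescue cells (SD, n = 3), a change of -0.96 ± 0.25 (limma, adjusted p = 0.0107), and its change in KO cells was 0.48 ± 0.25 (adjusted p = 0.248). Fzd4 fell in dense rescue cells, with an interaction of 1.44 ± 0.36 (limma, adjusted p = 0.0155). Fzd1 averaged 3.86 ± 0.18 in dense and 2.25 ± 0.19 in sparse rescue cells (SD, n = 3), a change of 1.60 ± 0.21 (limma, adjusted p = 0.000138), and its change in KO cells was 0.57 ± 0.21 (adjusted p = 0.110). Fzd1 rose in dense rescue cells, with an interaction of -1.03 ± 0.30 (limma, adjusted p = 0.0315) that lost its call without each of 8 single arrays (-0.87 to -1.06, adjusted p 0.0511 to 0.0764). Fzd5 averaged -1.22 ± 0.37 in dense and -1.95 ± 0.21 in sparse rescue cells (SD, n = 3), a change of 0.73 ± 0.25 (limma, adjusted p = 0.0360), and its change in KO cells was -0.69 ± 0.25 (adjusted p = 0.103). Fzd5 rose in dense rescue cells on its brighter probe, while its second probe went the other way, at -0.66 ± 0.26 (limma, adjusted p = 0.0695, not called). The interaction of Fzd5 was -1.42 ± 0.35 on the brighter probe (limma, adjusted p = 0.0156) and 0.20 ± 0.37 on the second probe (adjusted p = 0.735). The density call of Fzd5 in rescue cells was lost without rescue culture 2 of either density (0.54 without the dense one, adjusted p = 0.131, and 0.63 without the sparse one, adjusted p = 0.109), without sparse rescue culture 1 (0.72, adjusted p = 0.0816) or without dense rescue culture 3 (0.75, limma, adjusted p = 0.0683), and with the slide as a fixed block (0.73, adjusted p = 0.0639).

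Wnt9a averaged -2.90 ± 0.36 in dense and -4.30 ± 0.42 in sparse rescue cells (SD, n = 3), a change of 1.40 ± 0.28 (limma, adjusted p = 0.00204), and its change in KO cells was 0.40 ± 0.28 (adjusted p = 0.393). Wnt9a rose in dense rescue cells on this probe, and its dim second probe gave -0.41 ± 0.58 (limma, adjusted p = 0.614). Wnt7b was lower in dense rescue cells, with a change of -1.29 ± 0.39 (limma, adjusted p = 0.0200), although its densities overlapped there. Its call was lost without sparse rescue culture 1 (-1.25, adjusted p = 0.0551) or 2 (-0.998, adjusted p = 0.0792), or dense rescue culture 2 (-1.06, adjusted p = 0.0767) or 3 (-1.07, limma, adjusted p = 0.0763). Of the members that marked a line, Wnt5b gave -0.01 ± 0.17 in KO cells (limma, adjusted p = 0.984) and 0.01 ± 0.17 in rescue cells (adjusted p = 0.978) on its brighter probe. Its second probe gave -0.91 ± 0.31 in KO cells (limma, adjusted p = 0.0762, not called), where the densities did not overlap. In rescue cells the second probe gave -0.21 ± 0.31 (adjusted p = 0.625). Wnt10b gave -0.17 ± 0.30 in rescue cells (limma, adjusted p = 0.675) and Wnt5a 0.66 ± 0.26 in KO cells (adjusted p = 0.125). Scaling to spike-in RNA adds 1 constant per array, which moved the median of all genes by 3.07 in KO cells, by 0.72 in rescue cells and by 2.35 in the interaction, and every member by the same amounts. On that scale all 26 members were higher in dense KO cells and in rescue cells the falls of Fzd2 (-0.24), Fzd4 (-0.24), Wnt4 (-0.46) and Wnt7b (-0.57) were no longer called, so that the directions given here are relative to the 75th percentile of the array. With normexp correction 0 members were called in KO cells (limma, 5 at an unadjusted p under 0.05), 2 in rescue cells and 1, Fzd2, for the interaction.

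**Figure D4:**
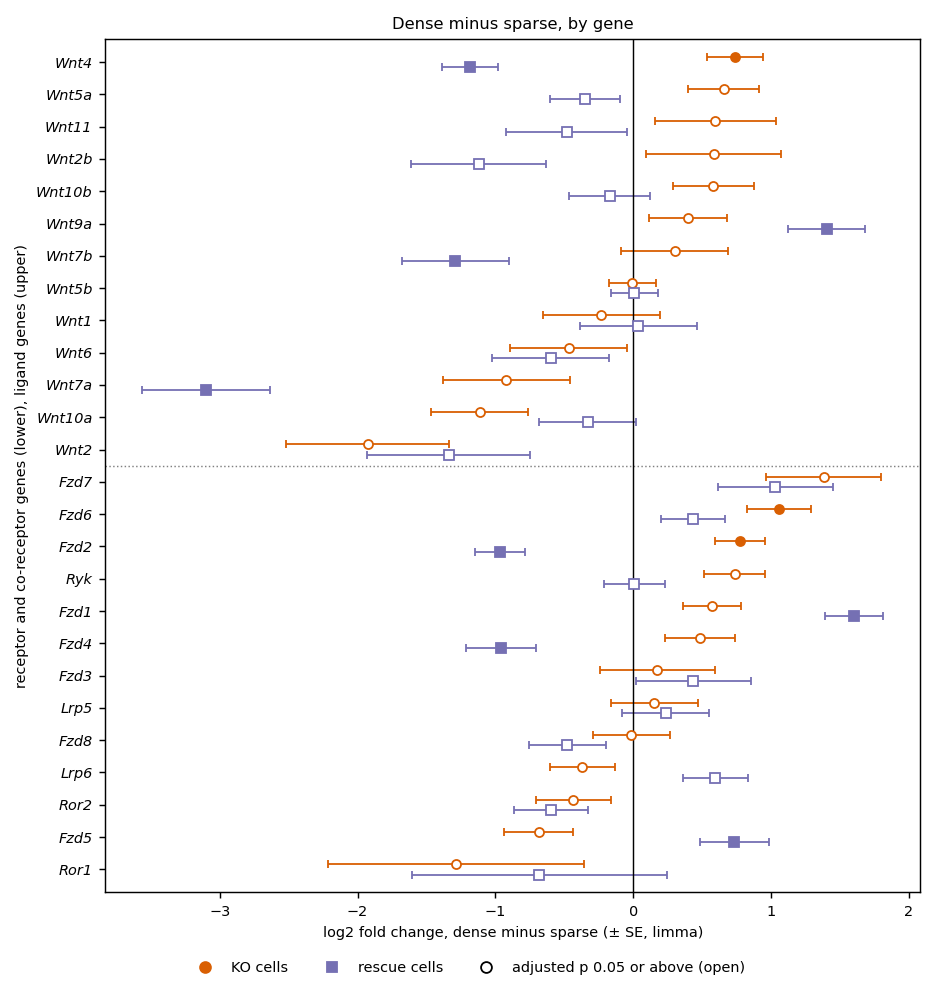
Log2 fold change of dense minus sparse cells (horizontal axis, ± SE from limma) for the 13 ligand genes (upper) and 13 receptor and co-receptor genes (lower), with circles for KO and squares for rescue cells and open symbols for an adjusted p of 0.05 or above. The circle and the square of Wnt4 and of Fzd2 are filled and lie on opposite sides of 0, and Wnt7a in rescue cells lies farthest to the left at -3.10.

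Other genes of the pathway were taken from 3 lists. Of 15 tested genes of Wnt secretion and receptor turnover, 9 were called between the lines in dense cells (3 higher and 6 lower in KO cells, 60%) and 10 in sparse cells (3 higher and 7 lower, 66.7%). Of 29 tested genes of the beta-catenin arm, 17 were called in dense cells (8 higher and 9 lower, 58.6%) and 11 in sparse cells (8 higher and 3 lower, 37.9%). Of 25 tested genes of the planar polarity and calcium arm, 12 were called in dense cells (5 higher and 7 lower, 48%) and 10 in sparse cells (5 higher and 5 lower, 40%). The shares over all genes were 61.6% in dense and 48.8% in sparse cells, and the medians of the lists lay between -0.11 and 0.09 in dense and between -0.23 and 0.16 in sparse cells. Within the shared slide, whose arrays are part of the fit, all 38 genes of these lists called in dense cells and all 31 called in sparse cells had the sign of the fitted difference. This agreement is likewise not independent of the calls.

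Both genes that a cell needs to release Wnts were lower in KO cells. Porcn, the enzyme that attaches the lipid, averaged -3.15 in dense KO and -0.23 in dense rescue cells, a difference of -2.92 ± 0.23 (limma, adjusted p = 4.68e-07), and gave -2.95 ± 0.23 in sparse cells (adjusted p = 5.58e-07). Wls, the carrier that brings Wnts to the surface, averaged 2.60 in dense KO and 4.55 in dense rescue cells, a difference of -1.95 ± 0.18 (limma, adjusted p = 1.80e-06), and gave -1.41 ± 0.18 in sparse cells (adjusted p = 4.15e-05). Of the genes that tune receptors outside the cell, Sulf1, which trims heparan sulfate, averaged 3.06 ± 0.24 in dense KO, -6.07 ± 0.19 in dense rescue, 1.88 ± 0.04 in sparse KO and -6.85 ± 0.56 in sparse rescue cells (SD, n = 3). It was higher in KO cells by 9.14 ± 0.25 in dense cells (limma, adjusted p = 6.69e-11) and at least 237-fold in sparse cells. Rspo1, which strengthens Wnt signals through Lgr receptors, averaged 3.36 ± 0.58 in dense KO, -7.51 ± 0.29 in dense rescue, 0.88 ± 0.45 in sparse KO and -6.16 ± 2.60 in sparse rescue cells (SD, n = 3). It was at least 907-fold higher in dense KO cells (limma, adjusted p = 9.41e-07) and 7.04 ± 0.93 higher in sparse KO cells (adjusted p = 5.78e-05). Rspo2, a relative of Rspo1, was above background in dense rescue cells only, where it was at least 3.83-fold higher than in sparse rescue cells. KO cells were at least 3.52-fold lower than rescue cells in Rspo2 at the dense seeding, and the interaction was -4.09 ± 0.46 (limma, adjusted p = 0.000208).

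In the beta-catenin arm the DNA-binding partners of beta-catenin moved in different directions. Lef1 averaged -0.98 in dense KO and -4.03 in dense rescue cells, a difference of 3.05 ± 0.24 (limma, adjusted p = 4.75e-07), and gave 2.02 ± 0.24 in sparse cells (adjusted p = 2.44e-05). Tcf7 averaged -3.98 in dense KO and -0.77 in dense rescue cells, a difference of -3.20 ± 0.20 (limma, adjusted p = 4.76e-08), and gave -4.24 ± 0.20 in sparse cells (adjusted p = 4.65e-09). The Groucho corepressors also divided, since Tle4 averaged 2.83 in dense KO and -4.43 in dense rescue cells, a difference of 7.26 ± 0.21 (limma, adjusted p = 9.75e-11), and gave 6.26 ± 0.21 in sparse cells (adjusted p = 4.18e-10). Tle2 averaged -2.75 in dense KO and 2.95 in dense rescue cells, a difference of -5.69 ± 0.36 (limma, adjusted p = 7.13e-08), and gave -4.47 ± 0.36 in sparse cells (adjusted p = 7.86e-07). Beta-catenin itself (Ctnnb1) averaged 3.71 in dense KO and 4.34 in dense rescue cells, a difference of -0.63 ± 0.21 (limma, adjusted p = 0.0201), and gave -0.36 ± 0.21 in sparse cells (adjusted p = 0.174, not called). With spike-in scaling the dense difference of Ctnnb1 was 0.17 (limma, adjusted p = 0.760) and the sparse difference of Lef1 was 0.48 (adjusted p = 0.349). In the polarity and calcium arm, the polarity genes with the largest differences were higher in KO cells. Celsr1 averaged 2.64 in dense KO and -2.19 in dense rescue cells, a difference of 4.83 ± 0.33 (limma, adjusted p = 1.25e-07), and gave 7.26 ± 0.33 in sparse cells (adjusted p = 4.01e-09). Prickle1 averaged 0.63 in dense KO and -5.17 in dense rescue cells, a difference of 5.80 ± 0.21 (limma, adjusted p = 5.33e-10), and gave 5.57 ± 0.21 in sparse cells (adjusted p = 9.64e-10). Daam2, a formin that links Dishevelled to actin, averaged 1.37 in dense KO and -4.69 in dense rescue cells, a difference of 6.07 ± 0.34 (limma, adjusted p = 2.39e-08), and gave 7.40 ± 0.34 in sparse cells (adjusted p = 4.69e-09). Nfatc1, a factor that enters the nucleus on calcium signals, was lower. It averaged -4.81 in dense KO and 1.60 in dense rescue cells, a difference of -6.41 ± 0.23 (limma, adjusted p = 5.35e-10), and gave -5.19 ± 0.23 in sparse cells (adjusted p = 4.01e-09).

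With density, 2 genes of secretion and receptor turnover, 4 of the beta-catenin arm and 3 of the polarity and calcium arm were called in KO cells, shares of 13.3%, 13.8% and 12% beside 10.9% of all genes. In rescue cells the counts were 6, 10 and 8, shares of 40%, 34.5% and 32% beside 40% of all genes. The interaction was called for 3, 3 and 4 genes, shares of 20%, 10.3% and 16% beside 20.7% of all genes. Besides Rspo2, the larger changes in rescue cells were those of Celsr1 (2.78 ± 0.33, limma, adjusted p = 6.35e-05), Tle2 (2.69 ± 0.36, adjusted p = 0.000154) and Lgr6, a receptor for R-spondins (-2.19 ± 0.42, adjusted p = 0.00147). The interaction of Celsr1 was -2.43 ± 0.46 (limma, adjusted p = 0.00399), and with spike-in scaling it was -0.08 (adjusted p = 0.911).

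**Figure D5:**
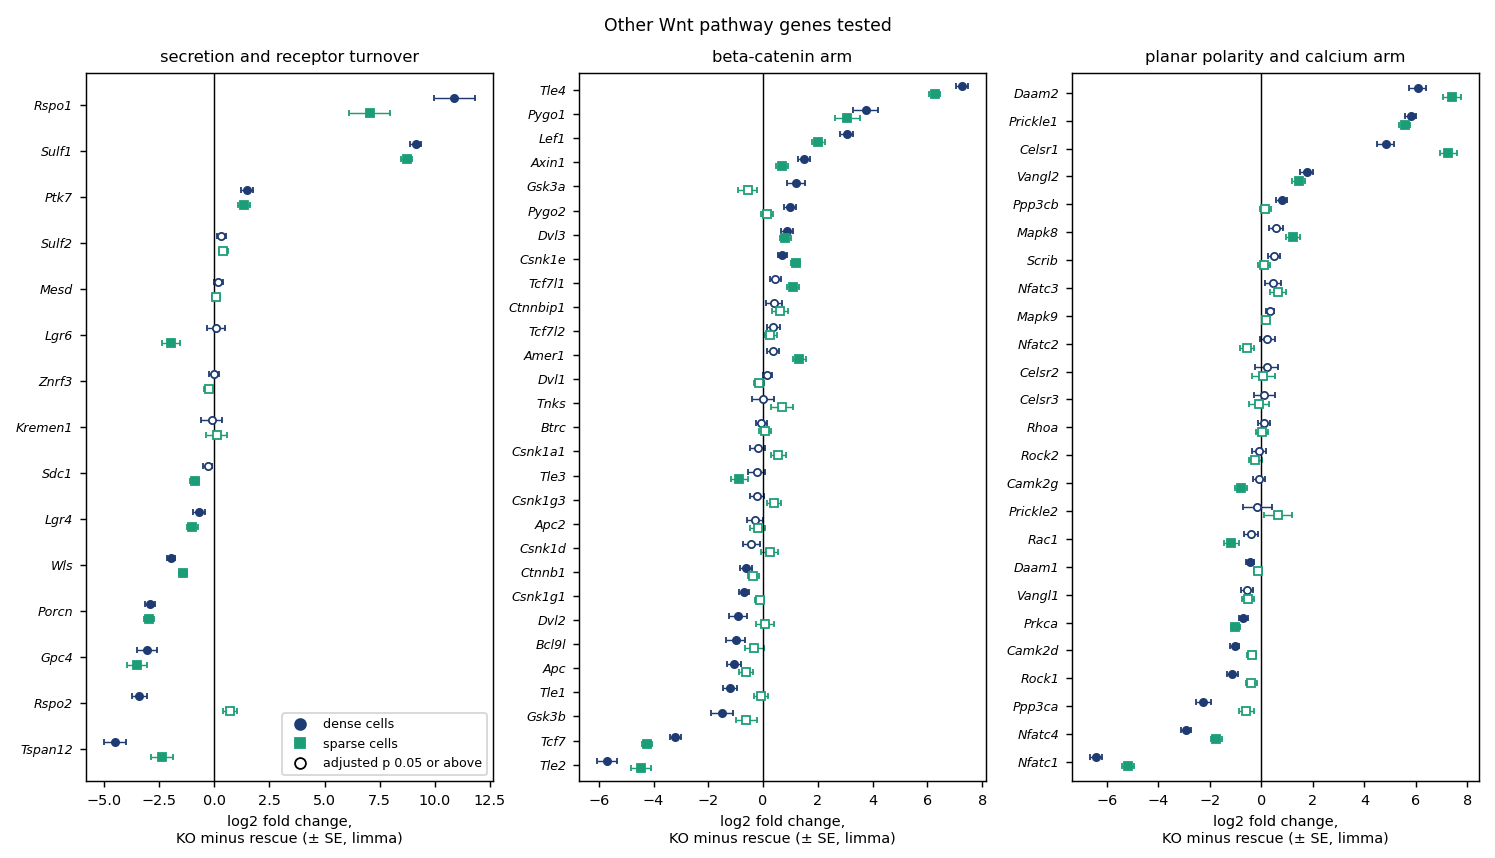
Log2 fold change of KO minus rescue (horizontal axis, ± SE from limma) for the tested genes of 3 further lists of the Wnt pathway, with circles for dense and squares for sparse cells and open symbols for an adjusted p of 0.05 or above. Sulf1, Rspo1, Tle4, Daam2, Celsr1 and Prickle1 lie far to the right and Tle2, Tcf7 and Nfatc1 far to the left, while most other genes lie within a few units of 0.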

How the data were processed

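RNA of 12 cultures (4 groups, 3 each, 1 per experimental day) was hybridised in 1 colour. The deposited scanner files hold intensity per spot from Agilent Feature Extraction 10.5.1.1, per the file headers (version 10 per the submitters' processing notes), already background-corrected in the processed signal. The deposited value table holds log2 values, with column medians of 8.38 to 8.39, whose scale and centring the authors do not state in the sources used here, and 4 of its 12 columns (day 3) matched best the array of the other line (r 0.972 to 0.987, against 0.833 to 0.874 for the labelled array). It served as an alternative only, and the alternative that leaves out its day 3 was chosen after seeing the data.

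Log2 processed signals minus the 75th percentile of each array were averaged per probe and fitted with limma 3.58.1 in R 4.3.3 (4 group means, 8 residual degrees of freedom, Benjamini-Hochberg adjustment over 12438 genes). Of 41174 probes, 24375 had 1 gene symbol, and 25931 that were well above background on 3 of 3 arrays of a group were kept. The brightest kept probe stood for its gene. Gene symbols are those of RefSeq, matched through the accession that the scanner files give for each probe. No spot was saturated. The fit was tested on simulated data for KO minus rescue in sparse cells, where it recovered 38% of 2-fold and 87% of 4-fold changes among 200 changed of 12335 genes, with 2 false calls of 127. The simulated noise was independent between arrays, with no effect of day or slide. Far fewer genes changed than the 48.8% called in the data, which alters the adjusted threshold. These rates check that the fit runs as intended and do not give its rates in the data. A value of 1 gene compared over 3 against 3 arrays by permutation cannot reach a p under 0.1, so the fit over all genes was used.

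The labels name the day of each culture, so cultures of a day pair across groups. Deviations from group means correlated above 0.1 in 11 of 18 same-day pairs (-0.04 to 0.29). The members and lists were chosen with earlier results of these data known. Every member is accounted for, with the value on each array for those called. Of each other list the 3 genes with the largest called changes and the largest in the opposite direction were eligible to be named, and Porcn, Wls and Ctnnb1 were named for their roles. Alternatives were normexp correction of the median signal (the mean signal was not used here), quantile, median and spike-in scaling, other filters, the mean of probes, day and slide blocks, and leaving out each array.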

Additional observations from a re-analysis of the deposited data

Results flagged for a closer look

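The change with density was called as different between the lines, by the interaction test in limma, for 6 of the 26 members tested. This is 23.1% of them, near the 20.7% of all genes that were called, so the count is not particular to the members. Each value is the dense minus sparse change in KO cells minus that in rescue cells, on the log2 scale, with 3 cultures per group. It was 2.18 for Wnt7a (a change of -0.92 in KO cells and -3.10 in rescue cells), 1.92 for Wnt4 and 1.74 for Fzd2. For Fzd4 it was 1.44, for Fzd5 -1.42 and for Fzd1 -1.03. Wnt7a was above background on 0 of 3 arrays in both KO groups and on 1 of 3 in dense rescue cells. Its change in KO cells and the dense end of its change in rescue cells are thus readings near background. The calls of Wnt7a and Fzd1 were each lost when 1 of several single arrays was left out, and the second probe of Fzd5 gave 0.20. With normexp correction only Fzd2 kept its call. Spike-in scaling turned Fzd1 to 1.32 and Fzd5 to 0.93, neither of them called. No group held enough cultures for a test of outlying samples.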

How the results depend on the processing

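Across 3294 values of single members under the alternatives, 2959 kept their direction and their side of the threshold or lay within the spread between replicates, a count that includes 122 uncalled values of opposite sign. Another 164 lost the call, 95 gained it, 51 within-slide values moved by more than 1 SD, and 25 reversed. The cause of these changes was not tested, except where the construction of an alternative shows it.

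Leaving out 1 array at a time called 18 to 20 members between the lines in dense cells and 21 to 22 in sparse cells, 0 to 5 with density in KO cells, 6 to 9 with density in rescue cells and 4 to 7 for the interaction. For the other pathway genes the ranges were 35 to 38, 29 to 33, 2 to 10, 20 to 26 and 7 to 12 in the same order. With density in KO cells, where 3 members and 9 other genes were called, 1 member and 3 others were called without sparse KO culture 1, 0 and 4 without sparse KO culture 3, 0 and 2 without dense KO culture 2, and 5 members without dense rescue culture 2. Both counts of 0 members had 9 at an unadjusted p under 0.05 (limma).

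The requirement to be above background on all 12 arrays leaves fewer genes to test, among them 14 of the 26 members. Of these 14 it called 10 between the lines in dense and 11 in sparse cells, and 5 with density in KO cells. These counts are therefore not to be set directly against those over 26 members. Normexp correction called 0 members with density in KO cells (limma, 5 at an unadjusted p under 0.05), 2 in rescue cells and 1 for the interaction. Of the other genes it called 20 between the lines in sparse cells, 0 with density in KO cells (11 unadjusted), 10 in rescue cells and 1 for the interaction. Median centring and the mean of probes each called 5 members with density in KO cells, and the slide as a random block called 7, as well as 16 other genes for the interaction. The deposited table called 0 members and 0 other genes in each of the 5 comparisons (limma, at most 1 member and 6 other genes at an unadjusted p under 0.05), with Fzd6 at 0.027, Ryk at 0.03 and Wnt2 at -0.15 in dense cells. Without its day 3 the deposited table called 18 members between the lines in dense cells, 13 higher and 5 lower in KO cells. In sparse cells it then called 23, 14 higher and 9 lower. It called 1 member with density in KO cells and 6 in rescue cells, and 2 members and 3 other genes for the interaction.

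Spike-in scaling adds 1 constant per array and moved the median of all genes by 0.80 (KO minus rescue, dense), -1.55 (sparse), 3.07 (density in KO cells), 0.72 (density in rescue cells) and 2.35 (interaction). It called 26 members and 69 other genes with density in KO cells, 22 and 57 for the interaction, and 54 other genes between the lines in sparse cells. The constant moved every gene tested and the share of all genes called on this scale is not given here. These counts therefore say nothing particular about the members or the lists. Reversed differences between the lines were those of Ryk in dense cells (0.15) and Wnt7b in sparse cells (-1.18). Reversed density changes in KO cells were those of Fzd5 (2.38), Fzd8 (3.06), Lrp6 (2.70), Ror1 (1.78), Ror2 (2.64), Wnt1 (2.84), Wnt10a (1.95), Wnt2 (1.14), Wnt5b (3.06), Wnt6 (2.60) and Wnt7a (2.15). Reversed interactions were those of Fzd1 (1.32), Fzd3 (2.09), Fzd5 (0.93), Lrp5 (2.27), Lrp6 (1.38), Wnt1 (2.08), Wnt10a (1.56), Wnt2 (1.76) and Wnt5b (2.33). The percentage of called genes that were higher was 51.8% in dense and 47.6% in sparse cells between the lines, 49.8% with density in KO cells, 47.5% in rescue cells and 54.4% for the interaction, and 78.1%, 6.15%, 100%, 90.6% and 99.5% with spike-ins. Median centring moved the sparse line difference by -0.30 and gave 30.6% there, 80.9% with density in KO cells and 70.9% for the interaction. Density in KO cells gave 33.3% with normexp and 63.1% with quantile scaling.

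With experimental day as a replicate block, 20 members were called between the lines in dense cells, 22 in sparse cells, 4 with density in KO cells, 8 in rescue cells and 6 for the interaction. It changed the calls of Ror1 in dense cells (adjusted p = 0.0294, limma) and Wnt2 with density in KO cells (-1.93, adjusted p = 0.0423) and no other call of a member. The lowest signal well above background was -6.60 to -5.19 on the log2 scale of an array, which bounds what can be read for genes near background.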
